A study of Arabidopsis thaliana with 24 samples.

Results

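The transcripts of 4 Arabidopsis thaliana genes, AT2G15020, AT2G27420, AT5G42760 and TBL26 (AT4G01080), were followed in shoots and roots during exposure to drugs that damage DNA. They were picked by their measured signals, out of 13286 genes with a named probe set: low in shoots at 0.5 h, higher there later, and flat in roots. Each is read by 1 named probe set. The study used Col-0 plants, the common laboratory accession, that received bleomycin, which cuts DNA strands, at 1.5 µg/ml together with mitomycin, which links the strands to each other, at 22 µg/ml on day 16, starting 3 h into a light period of 16 h. Shoots and roots were taken 0.5, 1, 3, 6, 12 and 24 h after the drugs went into the medium, 2 Affymetrix ATH1 arrays per organ and time, 24 arrays in 12 groups. All groups carry both drugs and were lifted on their rafts for mixing, and plants without drugs were not analysed here. The samples fell 3.5, 4, 6, 9, 15 and 3 h after lights on, so the hour of day and the length of exposure cannot be told apart between most times.

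TBL26 belongs to the trichome birefringence-like family, plant proteins of which several attach acetyl groups to cell wall polysaccharides such as xylan. AT2G27420 encodes a protein of the papain-like cysteine proteases, which break down proteins in the vacuole and outside the cell and include enzymes of senescence and defence. AT5G42760 encodes a protein of the leucine carboxyl methyltransferase type, a family whose best studied members, in animals and yeast as well as plants, methylate the end of a protein phosphatase subunit. No role of AT2G15020 is given here. AT2G15020 and AT2G27420 lie on chromosome 2, TBL26 on chromosome 4 and AT5G42760 on chromosome 5.

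Values are linear MAS5 signals, scaled alike on every array, and differences are on the log2(signal + 16) scale with the standard error of limma, which understates the change of dim probe sets. Median signals were 36.0 to 39.9 on shoot arrays and 45.2 to 47.8 on root arrays, and the arrays of each group correlated with r of at least 0.984. A pair of shoot arrays, replicate 1 of 12 h and replicate 2 of 24 h, stood nearest to the roots (mean r with root arrays 0.714 and 0.711, against 0.678 to 0.692 for the other shoot arrays). All 3 measured shoot markers were higher in shoots and all 3 measured root markers were lower there (limma, mean of 1 to 24 h). A listed gene counts as measured here if it has a named probe set. Others may lie among probe sets that are unnamed or carry several genes. The labels do not say that both arrays of a group came from separate plants or cultures, so p-values measure the spread between arrays, which may be technical. In whole organs, fewer cells of a type and less RNA per cell cannot be told apart.

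In shoots each gene had a high point at 1 h, a low point at 6 h and a second high level at 24 h. The early rise was therefore short. At 6 h the mean signal stood at 3.00% of its highest time for AT2G15020, 3.48% for AT2G27420, 10.2% for AT5G42760 and 13.1% for TBL26. The signals of AT2G15020 and AT2G27420 are dim at 0.5 h and at 6 h. Without detection calls it cannot be said whether they are above background. Folds over 0.5 h for these genes rest on that dim signal. The description "higher later" did not hold at 6 h, where the difference from 0.5 h was -0.34 ± 0.16 for AT2G15020, -0.58 ± 0.16 for AT2G27420, -0.47 ± 0.16 for AT5G42760 and -0.0041 ± 0.15 for TBL26. AT2G15020 was highest at 1 h and the other genes at 24 h.

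**Figure D1:**
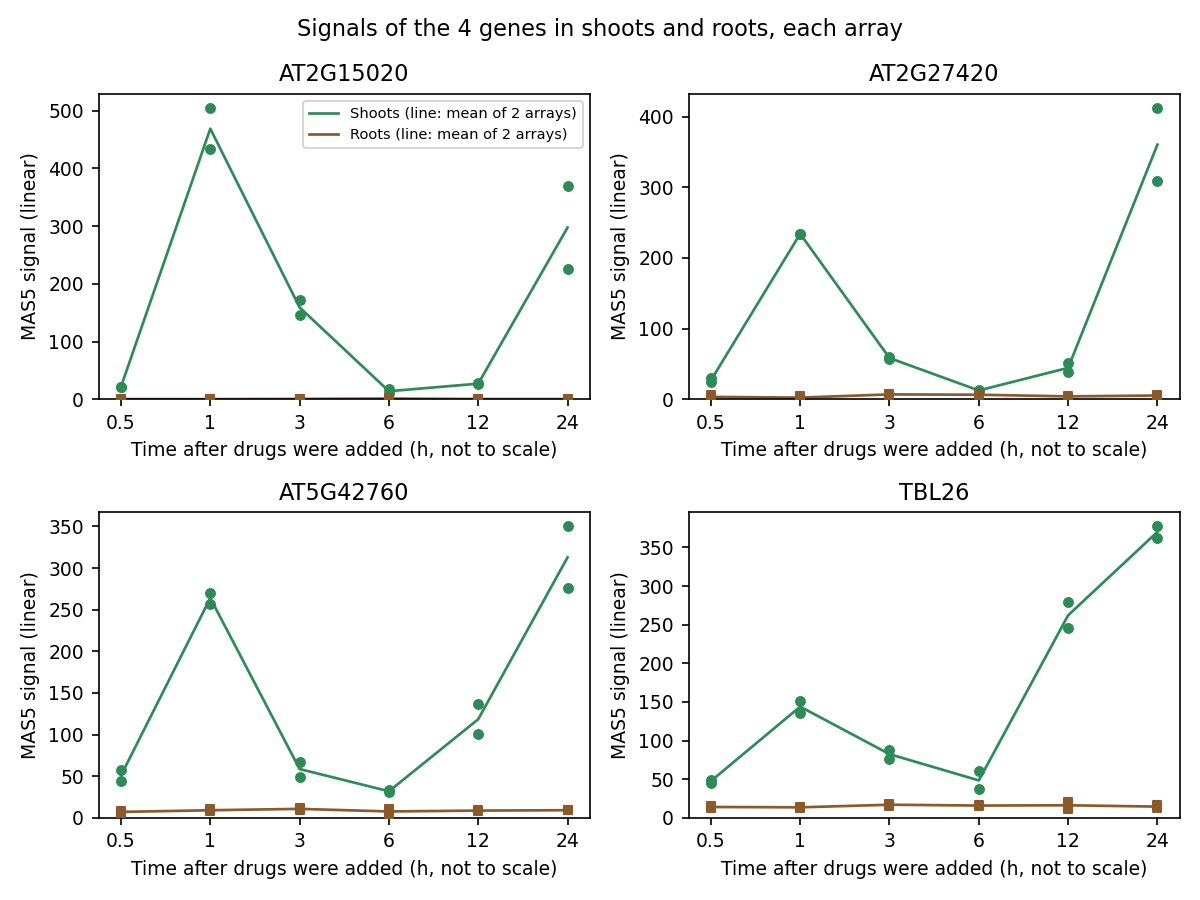
MAS5 signal (linear) of the 4 genes against time in h, green circles for each shoot array, brown squares for each root array and lines through the means of 2 arrays. Shoot signals have peaks at 1 h and 24 h and a low at 6 h, and root signals stay at or below 20.6 throughout.

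AT2G15020 gave shoot signals of 21.8 and 21.8 at 0.5 h, 504 and 433 at 1 h, 172 and 146 at 3 h, 11 and 17.1 at 6 h, 28.0 and 26.2 at 12 h, and 370.1 and 225 at 24 h. Its mean was 21.5-fold higher at 1 h than at 0.5 h, and its difference of 3.68 ± 0.16 ranked 1 among 22746 probe sets for that step, which served to choose the gene and is not tested. The order of the times was 1, 24, 3, 12, 0.5 and 6 h, and the 2 arrays of each time lay apart from those of the next. At 24 h the arrays differed most from each other, and the lower one is among the shoot arrays nearest to the roots. It was also the lower one at 24 h for AT2G27420 and AT5G42760, and the higher one for TBL26. That array also gave the higher signals of touch and wound genes at 24 h, with 344 for STZ, 67.2 for AT4G29780 and 27.5 for CML38, where the other array gave 82.1, 21.3 and 3.49, and the part of this difference in the result was not tested. In roots its 12 arrays lay between 0.317 and 2.01, with a median of 0.427.

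AT2G27420, the protease gene, gave shoot signals of 23.8 and 29.7 at 0.5 h, 234 and 234 at 1 h, 60.4 and 56.5 at 3 h, 12.1 and 13.0 at 6 h, 38.4 and 50.7 at 12 h, and 412 and 309 at 24 h. The mean at 1 h was 8.75-fold that at 0.5 h (2.55 ± 0.16, rank 9 of all probe sets, a description). In descending order its times ran 24, 1, 3, 12, 0.5 and 6 h, each apart from its neighbour. Root signals lay between 0.725 and 7.68 with a median of 5.05, and the arrays of 0.5 h alone spanned 0.77 to 6.17.

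AT5G42760, the methyltransferase gene, gave 58.0 and 43.7 at 0.5 h, 257 and 271 at 1 h, 67.6 and 49.6 at 3 h, 31.0 and 32.8 at 6 h, 100.1 and 137 at 12 h, and 350.0 and 276 at 24 h in shoots. Its mean at 1 h was 5.19-fold that at 0.5 h (2.07 ± 0.16, rank 13, a description). By 3 h it had returned to the level of 0.5 h, and the arrays of those times overlapped. The order was 24, 1, 12, 3, 0.5 and 6 h. In roots the signals lay between 4.74 and 11.7 with a median of 9.15.

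TBL26 gave 49.4 and 45.7 at 0.5 h, 151.5 and 136 at 1 h, 88.1 and 76.8 at 3 h, 36.7 and 60.2 at 6 h, 279 and 245 at 12 h, and 363 and 378 at 24 h in shoots. It had the smallest early step of the 4 genes, with a mean at 1 h 3.03-fold that at 0.5 h (1.33 ± 0.15, rank 53, a description). It was also the gene that had regained most by 12 h, when its mean stood at 70.8% of its highest, against 5.79% for AT2G15020, 12.4% for AT2G27420 and 37.9% for AT5G42760. Its order was 24, 12, 1, 3, 6 and 0.5 h, and the arrays of 6 h and 0.5 h overlapped. Root signals lay between 11.9 and 20.6 with a median of 14.9.

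The choice of the genes used the high shoot values at 1 h and 24 h, so the steps from 1 h to 3 h and from 12 h to 24 h are given as descriptions, without a test. The other comparisons were 3 h to 6 h, 6 h to 12 h and 24 h against 1 h. The choice did not set the order of the times within them, although those times were among the values looked at. In 24 h against 1 h both sides are values that chose the genes. These comparisons were tested with limma over all 22746 probe sets, an adjusted p below 0.05 being taken as a change. These p-values do not allow for the choice of the genes. With 2 arrays against 2, an exact test of 1 gene alone cannot go below p = 0.333 (two-sided), so each call rests on the variance shared across probe sets and groups.

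All 4 genes were lower at 3 h than at 1 h. AT5G42760 differed by -1.92 ± 0.16, AT2G27420 by -1.75 ± 0.16, AT2G15020 by -1.47 ± 0.16 and TBL26 by -0.70 ± 0.15, against a median of -0.0069 over all probe sets. The fit called 9.81% of all probe sets in this step, 4.36% higher and 5.45% lower, the 4 genes among the lower ones, and nothing is read from that count.

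All 4 fell between 3 h and 6 h, where 6.61% of probe sets were called, 3.63% higher and 2.98% lower. AT2G15020 changed by -2.55 ± 0.16 (adjusted p = 2.14e-08), AT2G27420 by -1.38 ± 0.16 (adjusted p = 1.62e-05), TBL26 by -0.63 ± 0.15 (adjusted p = 0.0182) and AT5G42760 by -0.63 ± 0.16 (adjusted p = 0.027). The calls of TBL26 and AT5G42760 were lost without the first array at 3 h (-0.55 and -0.45) or the first at 6 h (-0.37 and -0.60), that of AT5G42760 also without the second at 6 h (-0.66), and both with a pseudocount of 1 or the shoot arrays fitted alone.

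Between 6 h and 12 h all 4 rose, where 13.0% of probe sets were called, 6.50% higher and 6.52% lower. TBL26 led with 2.13 ± 0.15 (adjusted p = 7.6e-08), followed by AT5G42760 with 1.48 ± 0.16 (adjusted p = 9.88e-06) and AT2G27420 with 1.08 ± 0.16 (adjusted p = 0.000146). AT2G15020 changed by 0.53 ± 0.16 with an adjusted p of 0.0421, a call lost under 16 of 33 alternatives, among them without the first array at 6 h (0.38), without either at 12 h (0.50 and 0.56) and at a pseudocount of 64 (0.22).

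All 4 genes were higher at 24 h than at 12 h, with AT2G15020 at 2.82 ± 0.16, AT2G27420 at 2.63 ± 0.16, AT5G42760 at 1.29 ± 0.16 and TBL26 at 0.48 ± 0.15. The order of the 4 genes by size was the reverse of that between 6 h and 12 h, a difference that was not tested. Both steps use the 12 h arrays, with opposite signs, which by itself favours such a reversal. The fit called 16.6% of probe sets in this step, 7.64% higher and 8.99% lower, the 4 genes among the higher ones, and nothing is read from that count.

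Some organ markers moved in the same steps. LHCB4.2, a gene for a light-harvesting protein and 1 of 3 measured shoot markers, gave 1309 and 1833 at 12 h against 5829 and 4604 at 6 h (-1.73 ± 0.21, limma, adjusted p = 3.11e-05), and it rose to 5117 and 4034 at 24 h (1.54 ± 0.21, limma, adjusted p = 5.18e-05). The other shoot markers, RCA and LHCB4.1, passed in neither step. PYK10, 1 of 3 measured root markers, fell to 440.4 and 466 at 24 h, against 775 and 563 at 12 h (-0.53 ± 0.16, limma, adjusted p = 0.0267), and EXPA7 and EXPA18 passed in neither step. The part of these markers in the changes of the 4 genes was not tested.

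**Figure D2:**
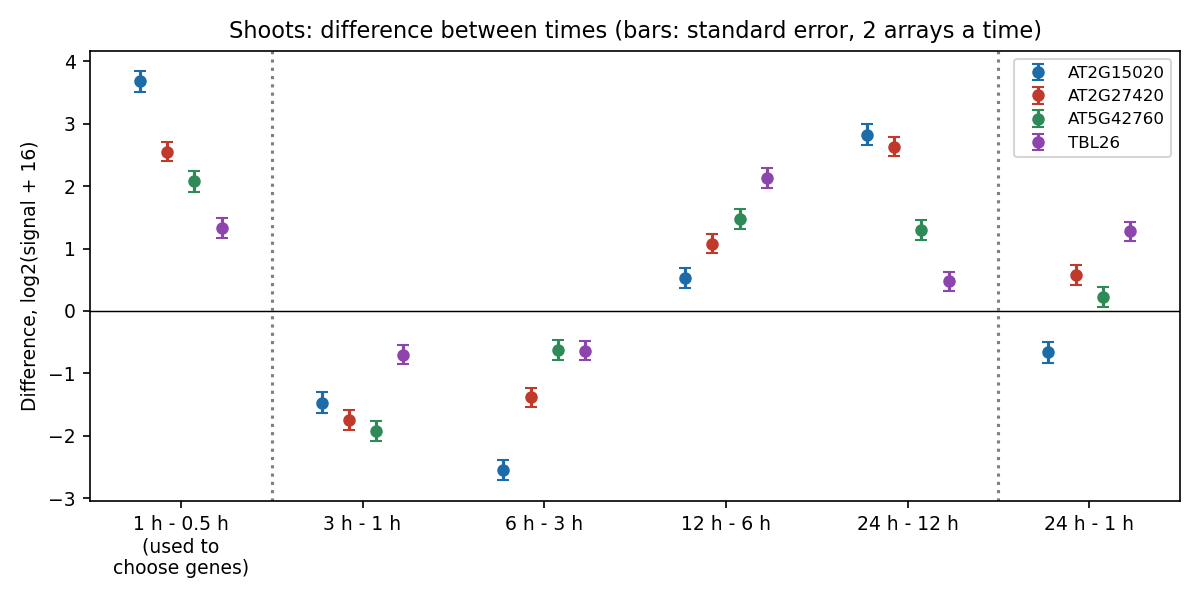
Difference between times in shoots on the log2(signal + 16) scale, a point for each gene and bars for the standard error, 2 arrays a time. The first step, which chose the genes, and the last 2 steps lie above 0, the steps of 3 h and 6 h lie below, and for 24 h minus 1 h the genes spread from -0.66 to 1.27.

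Whether the level at 24 h exceeds that at 1 h differed among the genes. TBL26 was higher at 24 h (363 and 378) than at 1 h (151.5 and 136), a rise of 1.27 ± 0.15 (adjusted p = 2.56e-05) and 2.57-fold in mean signal, with values from 1.06 to 1.36 over 33 alternatives that all kept the call. AT2G27420 was higher at 24 h by 0.58 ± 0.16 (adjusted p = 0.017), 1.54-fold in mean signal. AT5G42760 stood at 0.22 ± 0.16 (adjusted p = 0.429, 95% interval -0.12 to 0.57), so a difference was not detectable with these arrays although its 24 h arrays (350.0 and 276) lay just above those of 1 h (257 and 271). AT2G15020 was lower at 24 h (370.1 and 225) than at 1 h (504 and 433), at -0.66 ± 0.16 (adjusted p = 0.00951).

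Of the 4 genes 2 were thus called higher and 1 lower at 24 h than at 1 h, in a comparison that called 16.6% of probe sets, 7.29% higher and 9.29% lower. The call of AT2G15020 was lost without the first array at 1 h (-0.56, adjusted p = 0.092) and without the second at 24 h (-0.32, adjusted p = 0.16), which is one of the arrays nearest to the roots. Without either array at 1 h AT2G27420 lost its call (0.58 and 0.57, adjusted p = 0.0755 and 0.0814), as it did without the first at 24 h (0.38, adjusted p = 0.211), and both genes lost it at a pseudocount of 1.

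The steps from 1 h to 3 h and from 12 h to 24 h share no array with each other, but both reuse arrays that chose the genes, so the place of the 4 genes among all probe sets is a description. AT2G15020, AT2G27420 and AT5G42760 lie away from most probe sets, and TBL26 lies nearer to the centre.

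**Figure D3:**
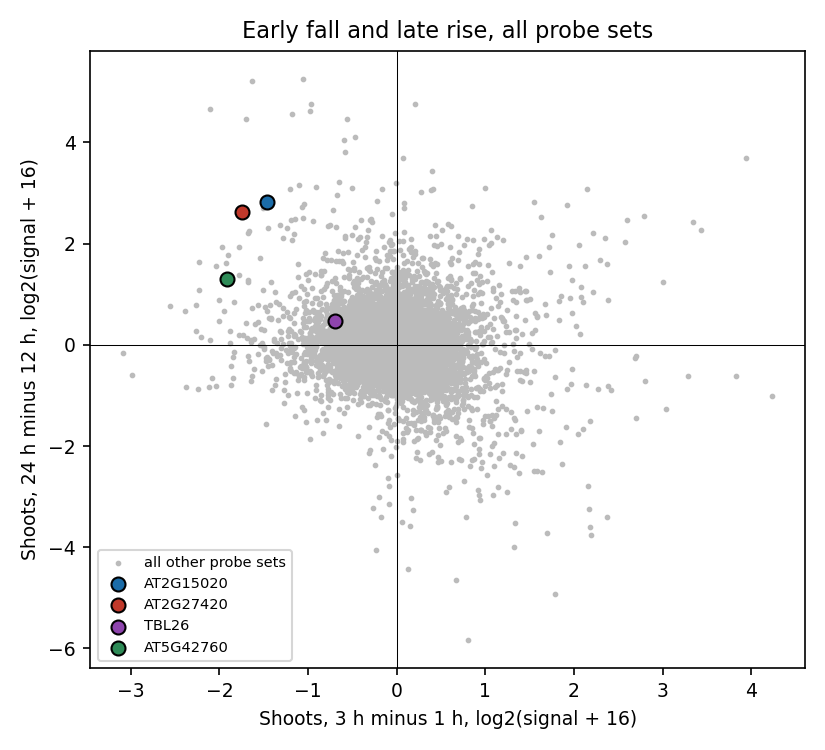
Change from 1 h to 3 h (x axis) against change from 12 h to 24 h (y axis) in shoots, log2(signal + 16), a grey point for each of 22746 probe sets and coloured points for the 4 genes. The 4 genes lie to the upper left of the origin, with TBL26, at -0.70 and 0.48, the closest to the origin.

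Over the 12 shoot arrays the log2 values of the genes correlated with r of 0.95 between AT2G27420 and AT5G42760, 0.91 between AT2G27420 and AT2G15020, 0.84 between TBL26 and AT5G42760, 0.79 between AT2G15020 and AT5G42760, 0.73 between TBL26 and AT2G27420 and 0.50 between TBL26 and AT2G15020. These are descriptions over 6 times with 2 arrays each, and the genes were chosen for a shared shape.

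Over the mean of 1 to 24 h, 10 arrays in each organ, all 4 genes were higher in shoots than in roots. These are the values that chose the genes, so the difference is a description, without a test. AT2G15020 differed by 2.93 ± 0.07, AT5G42760 by 2.42 ± 0.07, TBL26 by 2.36 ± 0.07 and AT2G27420 by 2.30 ± 0.07. The fit called 75.1% of probe sets, 26.0% higher and 49.1% lower in shoots, the 4 genes among the higher ones, and nothing is read from that count. The size depends on the pseudocount, since root signals were low: AT2G15020 stood at 5.93 with a pseudocount of 1 and at 1.61 with 64. For AT2G27420 the organs nearly met at 6 h, with 12.1 and 13.0 in shoots against 5.68 and 7.36 in roots. Detection calls were not used here, so it cannot be said whether a signal this dim is above background.

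Members of the same protein families were set beside the genes. Of 31 listed papain-like cysteine proteases 17 had a named probe set besides AT2G27420. Between 3 h and 6 h, when AT2G27420 fell, 4 of them rose and 0 fell (limma, 5 at an unadjusted p below 0.05), where 3.63% of all probe sets were higher and 2.98% lower, with a median of 0.19. Between 12 h and 24 h, when AT2G27420 was higher at the later time, 6 fell and 0 rose (7 at an unadjusted p below 0.05), where 8.99% of all probe sets were lower and 7.64% higher, with a median of -0.079, and 11 did not pass. At 24 h against 1 h 3 were higher and 0 lower (5 at an unadjusted p below 0.05), where 7.29% of all probe sets were higher and 9.29% lower, with a median of 0.12 against -0.024 for all probe sets. They were AT3G45310 at 0.68 ± 0.11, AT4G01610 at 0.46 ± 0.14 and AT1G02300 at 0.37 ± 0.11, and the calls of AT4G01610 and AT1G02300 were lost without any 1 of the 4 arrays. The count of higher proteases was 1 without either array at 1 h or the first at 24 h, and 1 was then lower without the second at 1 h. Between 3 h and 6 h 1 was called higher without the first array at 3 h or the second at 6 h, and between 12 h and 24 h 3 were called lower without the first at 24 h. In level, 9 of the 17 were lower and 1 was higher in shoots than in roots, with 7 not called, a share of lower ones near the 49.1% of all probe sets.

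Of 41 genes with a TBL symbol 21 had a named probe set besides TBL26. At 24 h against 1 h 2 were higher and 4 lower (median -0.05), where 7.29% of all probe sets were higher and 9.29% lower, with TBL45 at -1.13 ± 0.20, TBL38 at 0.77 ± 0.18, TBL32 at -0.64 ± 0.12, read by a probe set that the maker marks as shared by several transcripts, and TBL43 at -0.50 ± 0.14. TBL38 was not called once replicate 2 of 24 h was left out (0.48), nor TBL43 without either array at 1 h or the first at 24 h (-0.32). Between 3 h and 6 h, and again between 6 h and 12 h, 0 of the 21 passed in limma (2 at an unadjusted p below 0.05 in each step), where 6.61% and 13.0% of all probe sets were called. At 24 h against 1 h 2 were called lower in place of 4 without either array at 1 h or the first at 24 h, and the count of higher genes ran from 1 to 3, staying within 1.5 times the 2 given in 10 of 33 alternatives. In level 14 of the 21 were lower and 3 higher in shoots than in roots, against 49.1% and 26.0% of all probe sets.

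For each gene the 3 closest patterns were sought among genes whose 6 shoot means spanned at least 1 on the log2 scale, by Pearson r over the 12 shoot arrays. Closest to AT2G15020 were AT3G15310 (0.95), a pseudogene in the annotation, AT2G36630 (0.93) and AT3G48460 (0.92). AT3G15310 gave 30.7 and 22.5 at 0.5 h, 434 and 290.3 at 1 h, 76.7 and 51.9 at 3 h, 13.6 and 15.1 at 6 h, 28.1 and 23.4 at 12 h, and 123 and 104 at 24 h. It shares the peak at 1 h and the low at 6 h, and its root arrays lay between 2.65 and 7.53.

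AT5G15950 was the closest to both AT5G42760 (0.98) and AT2G27420 (0.96). Its shoot means were 130.4, 743, 168, 71.5, 219 and 675 at 0.5, 1, 3, 6, 12 and 24 h. In roots it gave 44.3 and 40.6 at 0.5 h, 89.4 and 127 at 1 h, and 55.6 and 44.1 at 3 h. It gave 32.6 and 53.2 at 6 h, 34.0 and 28.9 at 12 h, and 202 and 179 at 24 h there. It was therefore high at 1 h and 24 h in both organs. The 4 genes were chosen as flat in roots, where their signals were at most 20.6. Whether signals this dim would show such a change cannot be said. The other close patterns were AT3G48460 (0.95) for AT2G27420 and AT2G19650 (0.93) for AT5G42760, besides AT5G42760 and AT2G27420 for each other.

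Closest to TBL26 were GT72B1 (AT4G01070, 0.95), a glucosyltransferase gene, AT1G67360 (0.95) and APL3 (0.94), a gene for the large subunit of the enzyme that makes ADP-glucose for starch. GT72B1 is the protein-coding gene next to TBL26 in the TAIR10.1 annotation. It gave shoot signals of 78.8 and 99.4 at 0.5 h, 323 and 282 at 1 h, 131 and 143 at 3 h, 99.5 and 155 at 6 h, 393 and 395 at 12 h, and 429 and 377 at 24 h. In roots it was not flat, with 127 and 133 at 0.5 h, 262 and 243 at 12 h, and 256 and 228 at 24 h. For the other measured neighbours r over the shoot arrays was -0.14 for AT4G01090, on the other side of TBL26, 0.15 for AT2G15010, -0.10 for AT2G27410 and -0.27 for AT5G42765, each with the gene it adjoins.

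**Figure D4:**
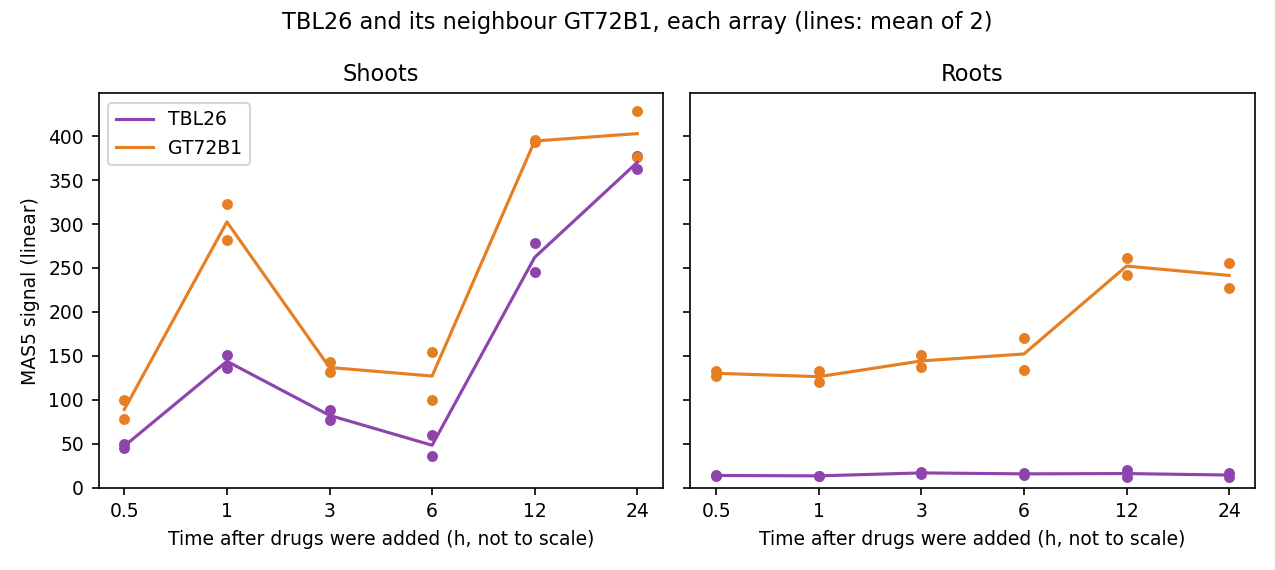
MAS5 signal (linear) of TBL26 (purple) and GT72B1 (orange) against time in h, shoots left and roots right, a point for each array and lines through the means of 2. Both have a peak at 1 h and high levels at 12 h and 24 h in shoots, whereas in roots GT72B1 is higher at 12 h and 24 h than at 0.5 h and TBL26 lies between 11.9 and 20.6.

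Few listed genes that follow the hour of day or handling of plants had a named probe set. Of 16 listed clock genes 1 had a named probe set, GI, a clock gene with an afternoon peak in light and dark cycles. GI gave shoot signals of 53.7 and 64.3 at 0.5 h, 113 and 104 at 1 h, 134 and 183 at 3 h, 586 and 450.5 at 6 h, 76.6 and 127 at 12 h, and 48.7 and 33.0 at 24 h. It was highest at 6 h, when the 4 genes were low. It rose between 3 h and 6 h (1.62 ± 0.18, adjusted p = 1.68e-05), fell between 6 h and 12 h (-2.20 ± 0.18, adjusted p = 4.3e-07) and was lower at 24 h than at 1 h (-1.15 ± 0.18, adjusted p = 0.000344). The samples of 0.5, 1 and 24 h fell close in hour, at 3.5, 4 and 3 h after lights on. At 24 h the difference from 0.5 h was 3.01 ± 0.16 for AT2G15020 and 3.13 ± 0.16 for AT2G27420. It was 2.30 ± 0.16 for AT5G42760 and 2.60 ± 0.15 for TBL26. These differences served to choose the genes and are a description. The part of the hour of day in the changes of the 4 genes was not tested.

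Of 14 listed touch and wound genes 3 had a named probe set. Each of them was lower at 1 h than at 0.5 h in shoots. The 4 genes were chosen as low at 0.5 h, so the choice itself sets their contrast with such genes. AT4G29780 gave 15.3 and 25.4 at 1 h against 71.0 and 44.2 at 0.5 h, CML38, a calmodulin-like gene, 2.82 and 8.63 against 31.7 and 26.4, and STZ, a zinc finger gene, 19.5 and 13.8 against 51.6 and 64.2. At 24 h STZ alone of them was called higher than at 1 h (2.53 ± 0.43, adjusted p = 0.000561), a value of 1.59 or 3.47 once replicate 2 or replicate 1 of 24 h is left out. The part of handling in the low level at 0.5 h was not tested.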

How the data were processed

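The deposited values were linear signal intensities for 22810 probe sets on 24 arrays, which per the submitters' processing notes come from MAS5. The version and settings are not given in the sources used here. In the values, each array has a mean of 100.01 once the lowest and highest 2% of probe sets are left out. The 64 control probe sets were left out, which left 22746. Of these 13513 carried 1 gene in the array's annotation, 503 several and 8730 are unnamed here, and 13436 matched a locus of TAIR10.1. A gene with several probe sets was read by the one with the highest mean.

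After a pseudocount of 16 and a log2 step, limma 3.58.1 in R 4.3.3 estimated a mean for each of 12 groups, with variances moderated along mean signal (residual degrees of freedom 12, prior 4.91). p-values were adjusted by Benjamini and Hochberg over all probe sets within each of 6 comparisons. Of these, 3 h against 1 h, 24 h against 12 h and shoots minus roots are only described for the 4 genes. They reuse the values that chose the genes. The comparison of 24 h against 1 h reuses such values too, but the choice did not set their order. The fit was tested on simulated data. Tables and figures used Python 3.11.15, numpy 2.4.6, pandas 2.3.3 and matplotlib 3.10.9.

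The 4 genes and the gene lists were chosen with earlier results of these data known. Genes outside them were named by rule: the 3 closest patterns to each gene and, of each list, up to 4 genes with the largest change among those called at 24 h against 1 h. Neighbours in the annotation, GI and the touch genes were named beside the results they touch, after their values were seen. Proteases, clock, touch and marker genes were listed from general knowledge. A list of leucine carboxyl methyltransferases and a search of promoter motifs were not made. Alternatives were pseudocounts of 1 and 64, quantile normalization, median centring, removal of the dimmest 30% of probe sets, variances without trend, a fit of shoots only, a block for replicate number and each array left out. The number of arrays limits the precision.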

Additional observations from a re-analysis of the deposited data

Results flagged for a closer look

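For AT2G15020, 24 h against 1 h, both shoot arrays moved one way and both root arrays the other. In shoots the change was -0.66, with 370.1 and 225 at 24 h against 504 and 433 at 1 h. In roots the signals were 0.375 and 0.584 at 24 h against 0.328 and 0.345 at 1 h, far below the pseudocount of 16. The difference between the organs was not tested.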

How the results depend on the processing

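No direction of the 4 genes turned in 788 values from 24 comparisons. Many of these could not turn, since a fit without an array outside the groups compared returns the same difference. So do the replicate block, the filter on dim probe sets and variances without trend. The values also include shoots minus roots, which reuses the values that chose the genes, so the total does not measure robustness. Of the 788 values, 736 kept their side of the fit's threshold and 52 lost it. Among the 52 are comparisons that the choice of the genes makes descriptions (3 h against 1 h and 24 h against 12 h). A pseudocount of 1 ended the calls at 24 h against 1 h of AT2G15020 (-0.69) and AT2G27420 (0.60), at 6 h against 3 h of TBL26 (-0.79) and AT5G42760 (-0.84), at 12 h against 6 h of AT2G15020 (0.93) and at 24 h against 12 h of TBL26 (0.50), and one of 64 that of AT2G15020 at 12 h against 6 h (0.22). Shoots fitted alone left the values unchanged by construction and, with fewer residual degrees of freedom, ended the calls of AT2G15020 at 24 h against 1 h (-0.66, adjusted p = 0.0628) and 12 h against 6 h (0.53, adjusted p = 0.154), of TBL26 (-0.63, adjusted p = 0.0611) and AT5G42760 (-0.63, adjusted p = 0.0968) at 6 h against 3 h, and of TBL26 at 24 h against 12 h (0.48). The probe sets called then numbered 851 in place of 1503 at 6 h against 3 h and 1961 in place of 2962 at 12 h against 6 h. Without both shoot arrays nearest to the roots, chosen after seeing the data, AT2G15020 at 24 h against 1 h (-0.32) and TBL26 at 24 h against 12 h (0.53) were not called. Quantile normalization, median centring, the filter on dim probe sets and variances without trend changed no call of the 4 genes. For the other losses the cause was not tested.

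With 1 array left out, AT2G15020 ranged from -1.0 to -0.32 and AT2G27420 from 0.38 to 0.78 at 24 h against 1 h, and TBL26 from -0.78 to -0.62 at 3 h against 1 h. At 6 h against 3 h TBL26 ranged from -0.90 to -0.37 and AT5G42760 from -0.80 to -0.45, AT2G15020 from 0.38 to 0.68 at 12 h against 6 h, and TBL26 from 0.39 to 0.56 at 24 h against 12 h. The probe sets called ranged from 2172 to 3925 at 24 h against 1 h, 1377 to 2416 at 3 h against 1 h, 615 to 1703 at 6 h against 3 h, and 1484 to 3186 at 12 h against 6 h, the lowest counts coming, in that order, without replicate 2 of 1 h, replicate 2 of 1 h, replicate 1 of 3 h and replicate 1 of 6 h.

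The replicate number as a block ended the call of TBL26 at 24 h against 12 h (0.48) and no other of the 4 genes, with 3706 probe sets called at 24 h against 1 h. Deviations of same-numbered arrays correlated with r from -0.19 to 0.20 over 66 pairs of groups, 6 of them above 0.1. A pairing of same-numbered arrays was thus not evident, but such values cannot exclude a shared culture or handling.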

Other observations

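A broader look for the same shape in shoots asked how many probe sets were higher by at least 1 on the log2 scale at 1 h than at 0.5 h, at 1 h than at 6 h and at 24 h than at 6 h. This shape was set after the values of the 4 genes were seen. It was met by 36 of 22746 probe sets (0.158%), of which 17 carry 1 gene, the 4 genes included. A rise of that size at 1 h over 0.5 h alone was met by 118 probe sets (0.519%).

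Among the 17 are HYH, a transcription factor gene related to the light signalling regulator HY5, and MYC4, a transcription factor gene of the jasmonate response, both named after their values were seen. HYH had mean log2 values of 6.21, 7.58, 5.66, 4.77, 5.85 and 7.20 at 0.5, 1, 3, 6, 12 and 24 h. MYC4 had 6.40, 7.70, 6.74, 6.25, 7.17 and 7.48. AT5G54130 met the shape with both of its probe sets, at 8.03 and 8.64 at 1 h, 4.75 and 5.11 at 6 h, and 7.59 and 8.36 at 24 h.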
